A study of Arabidopsis thaliana with 8 samples.

Results

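The comparison described here set the cry1 cry2 double mutant against the wild type, both grown in blue light, by RNA sequencing of whole Arabidopsis thaliana seedlings of the Col-0 ecotype. Its members were the gene models with at least 1 RPKM (a read count scaled to model length and library size) in at least 2 of the 4 libraries compared, and 19507 of 27416 models met that rule. The mutant and the wild type (WT) had 2 libraries each, and the blue light, at 15 µmol per m2 per s, was the same for both. Both had 3 days in the cold and 12 h of white light, and then 4 days under the blue light, on half-strength medium with 1% sucrose, for a growth time of 4.5 days. The series also held 2 libraries of the WT in darkness and 2 of the tir1 afb1 afb2 afb3 auxin receptor mutant in darkness, which entered the fit only to estimate the spread between libraries. The labels name neither the mutant alleles nor the number of seedlings pooled in a library, nor do they tell whether both libraries of a genotype were grown separately. Each p therefore measures the spread between these libraries, which may be technical.

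Cryptochromes are flavoproteins that absorb blue light. In the light, CRY1 and CRY2 of Arabidopsis bind and inhibit the COP1/SPA ubiquitin ligase, which in the dark removes transcription factors such as HY5, and they also bind PIF and other bHLH proteins. Seedlings without both receptors are long and pale in blue light, with small cotyledons, while phytochromes and phototropins still sense some of that light. Setting the mutant against WT in the same light asks which transcripts depend on the pair of receptors, one of the aims that the series states. The mutant libraries differed in more than the receptors, as given below for the neighbours of CRY2.

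The reads behind the RPKM values could be recovered, and came to 23.1 and 21.7 M reads in cry1 cry2 against 23.0 and 20.8 M reads in WT. Changes were tested with limma on log2(RPKM + 1), using 1 model for all 8 libraries of the series. A rise or fall in cry1 cry2 means a p under 0.05 after Benjamini-Hochberg adjustment. Values given with an SE (standard error) are log2 fold changes of cry1 cry2 over WT from 2 libraries a group, on the RPKM + 1 scale, which understates low genes. By that test 8246 models rose, which is 42.3% of those tested, and 5242 fell, which is 26.9%. Together 69.1% passed, so a call on its own says little about a gene. Counts of risen and fallen genes in any list below are to be read against these shares of 42.3% and 26.9%. In 10098 tested models both mutant libraries lay above both WT libraries, and in 6640 both lay below. A gap between the groups on its own therefore says little as well. Whole seedlings were used, so fewer cells of a type and less RNA per cell cannot be told apart in any value below. Rises of at least 2-fold numbered 1390 (7.13%) and falls of at least 2-fold 1478 (7.58%). The median log2 fold change over the tested models was 0.12, and the values below stand on that shifted scale. After median-of-ratios scaling, which moves that median to 0.01, 6543 models rose and 6357 fell, so that 50.7% of the calls were rises against 61.1% on the deposited scale. At the edge of the filter, the models just inside had a second highest value of 1.0003 to 1.0004 RPKM and those just outside 0.9982 to 0.9992 RPKM. Of the tested models 409 had at least 1 RPKM in both cry1 cry2 libraries and in neither WT library, and 349 were so in the other direction, and such models could enter only on their high side.

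**Figure D1:**
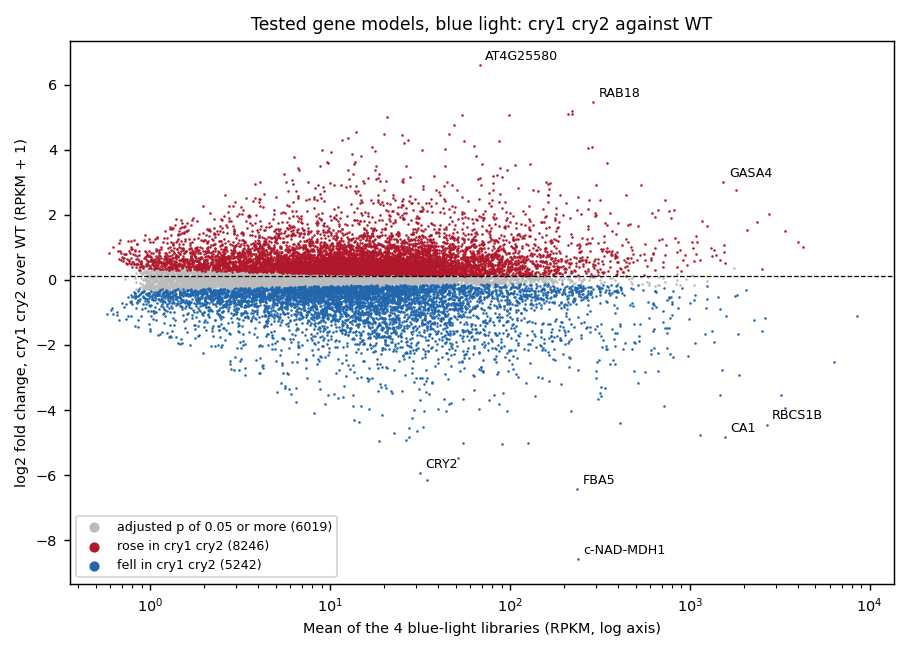
Log2 fold change of cry1 cry2 over WT (RPKM + 1) for the 19507 tested models against their mean RPKM in the 4 blue-light libraries, on a log axis. Red points rose, blue points fell and grey points did not pass, and the dashed line marks the median of 0.12. The malate dehydrogenase c-NAD-MDH1, next to CRY2 in the genome, lies lowest and AT4G25580 highest.

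The mutated genes were read first, as a check of the labels. CRY2 (AT1G04400) had 0.0574 and 0.0407 RPKM in cry1 cry2 against 62.3 and 63.9 RPKM in WT. Nearly all of the CRY2 transcript was absent from the mutant libraries. In cry1 cry2 CRY1 (AT4G08920) stood at 32.8 and 33.7 RPKM, against 47.0 and 45.1 RPKM in WT. CRY1 transcript was thus still present in the mutant, below WT in both libraries. The log2 fold change was -5.93, SE 0.06 for CRY2 and -0.46, SE 0.06 for CRY1.

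In the order of locus numbers, the 2 models that follow CRY2 were also nearly absent from cry1 cry2. c-NAD-MDH1 (AT1G04410) measured 0.409 and 0.124 RPKM in the mutant libraries against 467 and 492 RPKM in WT. This gene codes for a cytosolic malate dehydrogenase, and its log2 fold change, -8.58, SE 0.09, was the largest fall on the RPKM + 1 scale. AT1G04420, annotated as an oxidoreductase, had no read in either mutant library against 4395 reads in the 2 WT libraries, which is at least 1500.0-fold lower by a floor of 3 reads over the group. The next models outward lay much nearer to WT. AT1G04430 was at 70.3 and 68.4 RPKM in the cry1 cry2 libraries, against 60.5 and 60.1 RPKM in WT. For AT1G04390 the values were 4.16 and 4.31 RPKM in cry1 cry2 against 3.14 and 2.69 RPKM in WT. Their log2 fold changes were 0.20, SE 0.06 and 0.42, SE 0.11. The rise of AT1G04430 did not pass under either other scaling (adjusted p = 0.136 with the upper quartile and 0.258 with median of ratios), nor without cry1cry2_blue replicate 1 (0.0701) or WT_blue replicate 2 (0.0578), and that of AT1G04390 did not pass without WT_blue replicate 2 (0.0541). Further out from CRY2, AT1G04360 fell by much less (-0.45 under upper-quartile scaling). Around CRY1 no model was nearly absent like the 2 that follow CRY2. Beside CRY1, APRL6 did not pass (0.02, SE 0.09), and EXO, 4 models further on, rose (0.74, SE 0.08). AT4G08940, also near CRY1, had a small fall (-0.23), which did not pass without the filter on low values (adjusted p = 0.0615). The fall of the malate dehydrogenase and of AT1G04420 moved with the CRY2 locus, and whether it belongs to the mutant allele was not tested. The mutant libraries thus lacked nearly all of these 2 transcripts as well as of CRY2. Effects of their loss cannot be told apart from loss of the receptors in any value here.

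**Figure D2:**
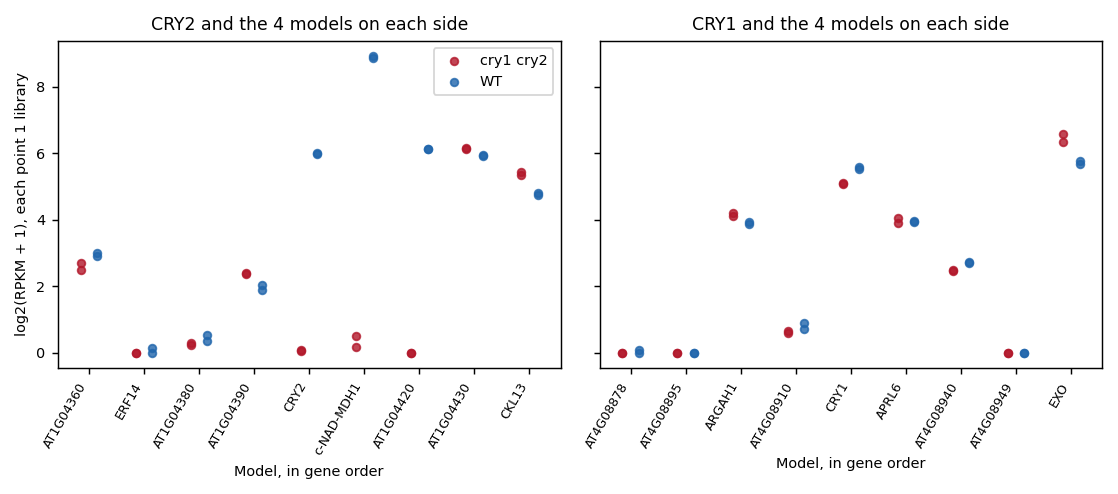
Levels of CRY2 (left) and CRY1 (right) with the 4 models on each side in locus order, as log2(RPKM + 1), each point 1 library, cry1 cry2 in red and WT in blue. CRY2 and the 2 models after it lie near 0 in cry1 cry2, whereas CRY1 lies a little below its WT level.

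The 12 largest rises included genes of the response to abscisic acid and drying and of amino acid metabolism. AT4G25580 reached 129.9 and 141 RPKM in cry1 cry2 and 0.403 and 0.423 RPKM in WT. Its RefSeq record calls it a CAP160 protein, the name it also gives to the drought gene RD29B, and its log2 fold change was 6.59, SE 0.07. Levels of RAB18 (AT5G66400) were 500.3 and 638 RPKM in cry1 cry2, against 12.0 and 11.5 RPKM in WT. RAB18 is a dehydrin, a hydrophilic protein that accumulates with abscisic acid, and rose by 5.47, SE 0.09. AT4G25580 is 1 of the 409 models that reached 1 RPKM in cry1 cry2 alone, so it could be tested only as a rise. So are GLYI7, AT5G39520, DIN2, HAI2, NYE2, GOLS3, CBF2, NAC3, HSP22.0 and AT1G75490 below. Among the falls the same holds the other way for CRY2, c-NAD-MDH1, AT1G04420, AT3G28270, 4CL3 and CYP79F1.

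ASN1 (AT3G47340) gave 431 and 435 RPKM in the mutant and 11.7 and 9.95 RPKM in WT. ASN1, also called DIN6, makes asparagine, a nitrogen-rich transport form, when carbon is short. BCAT2 (AT1G10070) stood at 184 and 201 RPKM in cry1 cry2, against 5.06 and 4.40 RPKM in WT. BCAT2 takes the amino group off branched-chain amino acids in the first step of their breakdown. DIN2 (AT3G60140) came to 37.4 and 41.0 RPKM in cry1 cry2 libraries against 0.767 and 0.849 RPKM in WT libraries. DIN2 is a glycosidase whose transcript is known from darkened leaves. Log2 fold changes were 5.21, SE 0.07 for ASN1, 5.08, SE 0.08 for BCAT2 and 4.47, SE 0.07 for DIN2. The other 7 of the 12 were SIS, AT5G44440, ORP4C, GLYI7, AT2G47780, AT5G39520 and AT1G07985, with log2 fold changes between 4.48 and 5.10. The record of SIS names a RLIM-like ubiquitin ligase, and it had 387 and 435 RPKM in cry1 cry2 against 10.9 and 11.1 RPKM in WT. ORP4C is an oxysterol-binding protein relative, and it had 106 and 106 RPKM in cry1 cry2 against 2.27 and 2.105 RPKM in WT.

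The 12 largest falls included enzymes of carbon metabolism. FBA5 (AT4G26530) measured 4.39 and 4.47 RPKM in the mutant libraries against 462 and 473 RPKM in WT. FBA5 is a fructose-bisphosphate aldolase and fell by 6.43 on the log2 scale. The order of the largest falls holds only on the RPKM + 1 scale, where the added 1 limits the fall of genes near 0 in the mutant, such as CRY2 and AT1G04420. CT-BMY (AT4G17090) was at 6.07 and 7.31 RPKM in the cry1 cry2 libraries, against 240.2 and 249.7 RPKM in WT. CT-BMY (BAM3) is the beta-amylase that releases maltose from starch in the chloroplast, and its log2 fold change was -5.004, SE 0.09. For CA1 (AT3G01500) the values were 98.1 and 111 RPKM in cry1 cry2 against 2930.4 and 3133 RPKM in WT. CA1 is the carbonic anhydrase of the chloroplast stroma (-4.84, SE 0.07).

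TT4 (AT5G13930) reached 4.53 and 4.20 RPKM in cry1 cry2 and 166 and 186 RPKM in WT. TT4 is chalcone synthase, which opens the flavonoid pathway (-5.04, SE 0.07). Levels of AOC2 (AT3G25770) were 2.30 and 2.40 RPKM in cry1 cry2, against 103 and 110.4 RPKM in WT. AOC2 is an allene oxide cyclase of jasmonate synthesis (-5.01, SE 0.08). MSRB6 (AT4G04840) gave 1.53 and 1.09 RPKM in the mutant and 106 and 98.8 RPKM in WT. MSRB6 is a methionine sulfoxide reductase, an enzyme that repairs oxidised methionine (-5.49, SE 0.11). In each of these 6 genes both mutant libraries lay below both WT libraries, which the rule for naming them required. The remaining falls were CRY2 and AT1G04420, described above, and AT3G28270, AT2G30766 and AT3G16670, whose records give a family or no name, with log2 fold changes of -4.94, -4.92 and -4.81.

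**Figure D3:**
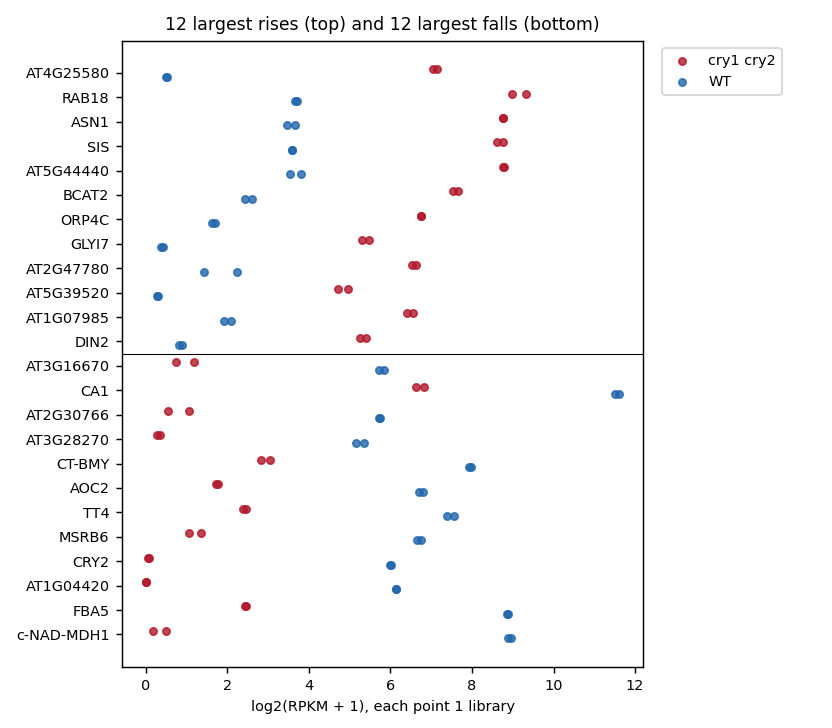
The 12 largest rises (above the line) and 12 largest falls (below it) among models with a mean of at least 5 RPKM and no overlap between groups, as log2(RPKM + 1), each point 1 library, cry1 cry2 in red and WT in blue. Every pair of mutant points lies apart from the WT pair, which the rule for naming these models required.

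In RPKM rather than in fold, the 8 largest losses were all models of photosynthesis. RBCS1A (AT1G67090) stood at 1751 and 2023 RPKM in cry1 cry2, against 10772 and 10758 RPKM in WT. RBCS1A codes for a small subunit of Rubisco, the enzyme that fixes carbon dioxide (-2.52, SE 0.10). The other 3 small-subunit models fell too, with log2 fold changes of -3.94 for RBCS2B, -3.54 for RBCS3B and -4.45 for RBCS1B. CAB1 (AT1G29930) came to 4868 and 5949 RPKM in cry1 cry2 libraries against 11556 and 11621 RPKM in WT libraries. CAB1 is a light-harvesting protein of photosystem II (-1.11, SE 0.11). Its close relative LHB1B2 stood among the 8 largest gains (1.02, SE 0.10). LHB1B2 (AT2G34420) had 5470.0 and 5976 RPKM in cry1 cry2 against 3086 and 2559 RPKM in WT. Reads that fit such near-identical genes equally well can be split or moved by the mapping, so the opposite directions of CAB1 and LHB1B2 and the split among RBCS models are uncertain. RCA, the Rubisco activase, and PSBR, a photosystem II subunit, completed the losses with CA1, at -2.92 and -1.58.

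The 8 largest gains in RPKM were of more varied kinds. In cry1 cry2 GASA4 (AT5G15230) stood at 2552 and 2934 RPKM, against 324 and 355 RPKM in WT. GASA4 is a small gibberellin-regulated peptide (3.01, SE 0.09). TIP1;2 (AT3G26520) measured 5297 and 4671 RPKM in the mutant libraries against 1736 and 1769 RPKM in WT. TIP1;2 is a water channel of the vacuole membrane (1.504, SE 0.09). PYK10 (AT3G09260) was at 5724 and 5279.6 RPKM in the cry1 cry2 libraries, against 2598 and 2338 RPKM in WT. PYK10 is a beta-glucosidase of the endoplasmic reticulum bodies of roots and hypocotyls (1.16, SE 0.09). GRP3S, LTP2, CAT3 and AT4G23670 were the others, at 2.02, 2.78, 1.55 and 1.78. Models that rose at least 2-fold held 19.9% and 19.6% of the summed RPKM of the cry1 cry2 libraries against 6.22% and 5.99% in WT. Models that fell at least 2-fold held 7.15% and 7.82% in cry1 cry2 against 27.5% and 28.0% in WT. These shares follow from how the models were chosen and carry no test.

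Of 88 tested models of the plastid genome 44 fell and 1 rose, so that 51.1% passed, against 69.1% of all models, of which 26.9% fell. Of 44 tested mitochondrial models 11 rose and 2 fell (29.5% passed). The libraries were made from polyadenylated RNA, which captures organelle RNA poorly.

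Abscisic acid is the hormone of drought and seed dormancy, and its signal runs from PYR/PYL receptors through PP2C phosphatases to SnRK2 kinases and ABF-type bZIP factors. Its synthesis, breakdown and signalling were covered by 20 tested genes (23 listed), of which 16 rose, 3 fell and 1 did not pass, with a median log2 fold change of 1.12 against 0.12 over all models. The falls were receptors. For PYL4 (AT2G38310) the values were 51.7 and 44.2 RPKM in cry1 cry2 against 103 and 94.4 RPKM in WT. PYR1 (AT4G17870) reached 68.2 and 63.3 RPKM in cry1 cry2 and 98.2 and 88.8 RPKM in WT. The receptor PYL6 was also lower (-1.08, SE 0.17), and these 3 receptors were the 3 falls of the list. Levels of HAI1 (AT5G59220) were 23.2 and 28.8 RPKM in cry1 cry2, against 4.13 and 4.16 RPKM in WT. HAI1 is a PP2C phosphatase that is induced by the hormone and restrains its signal (2.38, SE 0.11). Its relative HAI2 rose by 2.50, SE 0.15. ABF3 (AT4G34000) gave 127 and 129.7 RPKM in the mutant and 23.5 and 24.7 RPKM in WT. ABF3, a bZIP factor that binds abscisic acid response elements, rose (2.37, SE 0.06), and ABI5, a related bZIP factor of seeds and young seedlings, rose by 1.81, SE 0.08.

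Late embryogenesis abundant (LEA) proteins and dehydrins protect cells in drying seeds and stressed tissue. Of the 18 listed genes, which were all tested, 15 rose, 2 fell and 1 did not pass, with a median of 1.23. RD29B (AT5G52300) stood at 149 and 183 RPKM in cry1 cry2, against 8.26 and 7.04 RPKM in WT. LEA7 (AT1G52690) came to 101 and 139.6 RPKM in cry1 cry2 libraries against 5.76 and 6.03 RPKM in WT libraries. Their log2 fold changes were 4.27, SE 0.09 for RD29B and 4.12, SE 0.12 for LEA7. The falls were the chloroplast proteins COR15B and COR15A, which are known from cold-treated plants. COR15B (AT2G42530) had 2.85 and 10.4 RPKM in cry1 cry2 against 55.7 and 64.8 RPKM in WT. In cry1 cry2 COR15A (AT2G42540) stood at 1.72 and 7.87 RPKM, against 24.7 and 39.8 RPKM in WT. The 2 mutant libraries of both genes differ by more than 3-fold, and the log2 fold change of COR15A was -1.87 without cry1cry2_blue replicate 1 and -3.57 without replicate 2, and that of COR15B -2.43 and -3.99.

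The promoters of AT4G25580 and of the 3 named risen LEA genes are shown because they carry the elements that abscisic acid response factors are known to bind. They were read 5′ to 3′ on the strand of the gene from the TAIR10.1 assembly of RefSeq, at the starts that its annotation gives. Capitals mark the G-box CACGTG and the related elements ACGTGGC and, more often here, ACGTGTC, searched on both strands, and overlapping matches run together.
AT4G25580: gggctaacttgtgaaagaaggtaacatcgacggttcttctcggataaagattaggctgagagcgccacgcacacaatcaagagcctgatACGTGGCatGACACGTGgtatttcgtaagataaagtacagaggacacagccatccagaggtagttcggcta
RAB18: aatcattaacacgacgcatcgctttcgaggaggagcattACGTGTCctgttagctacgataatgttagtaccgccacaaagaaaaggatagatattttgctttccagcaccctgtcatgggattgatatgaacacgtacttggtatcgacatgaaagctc
RD29B: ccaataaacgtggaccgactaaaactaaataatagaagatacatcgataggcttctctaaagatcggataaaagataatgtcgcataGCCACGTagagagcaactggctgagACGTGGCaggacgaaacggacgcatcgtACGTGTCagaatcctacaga
LEA7: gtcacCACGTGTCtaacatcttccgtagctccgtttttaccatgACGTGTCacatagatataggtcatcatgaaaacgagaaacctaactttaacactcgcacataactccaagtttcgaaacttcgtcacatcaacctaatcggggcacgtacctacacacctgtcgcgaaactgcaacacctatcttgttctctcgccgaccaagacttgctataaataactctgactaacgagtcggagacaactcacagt
The AT4G25580 stretch lies on chr4:13056033-13056192 (plus strand) and holds 3 matches, of which those starting at -52 and -50 from the annotated start overlap. RAB18 lies on chr5:26519438-26519597 (minus strand) with 1 match at -111, and RD29B on chr5:21236871-21237030 (plus strand) with matches at -63, -38 and -10. LEA7 lies on chr1:19619501-19619754 (plus strand) with matches at -239, -238 and -200, the first 2 of which overlap. Within 250 bases before to 50 after the start, ACGTGTC stood in 9 of 18 LEA promoters (50%) against 5.1% of all 19291 promoters read. CACGTG, the G-box that also binds PIF and HY5 proteins, stood in 6 of the 18 (33.3%) against 9.02% of all promoters. Among models that rose at least 8-fold CACGTG stood in 20 of 75 promoters (26.7%), among those that fell at least 8-fold in 8 of 104 (7.69%). At 2-fold the shares lay closer, with CACGTG in 13.5% of risen and 10.3% of fallen models. ACGTGGC stood in 6.95% of models risen at least 2-fold and 7.6% of those fallen at least 2-fold, against 4.89% of all. These are descriptions of letters in a window and carry no test.

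**Figure D4:**
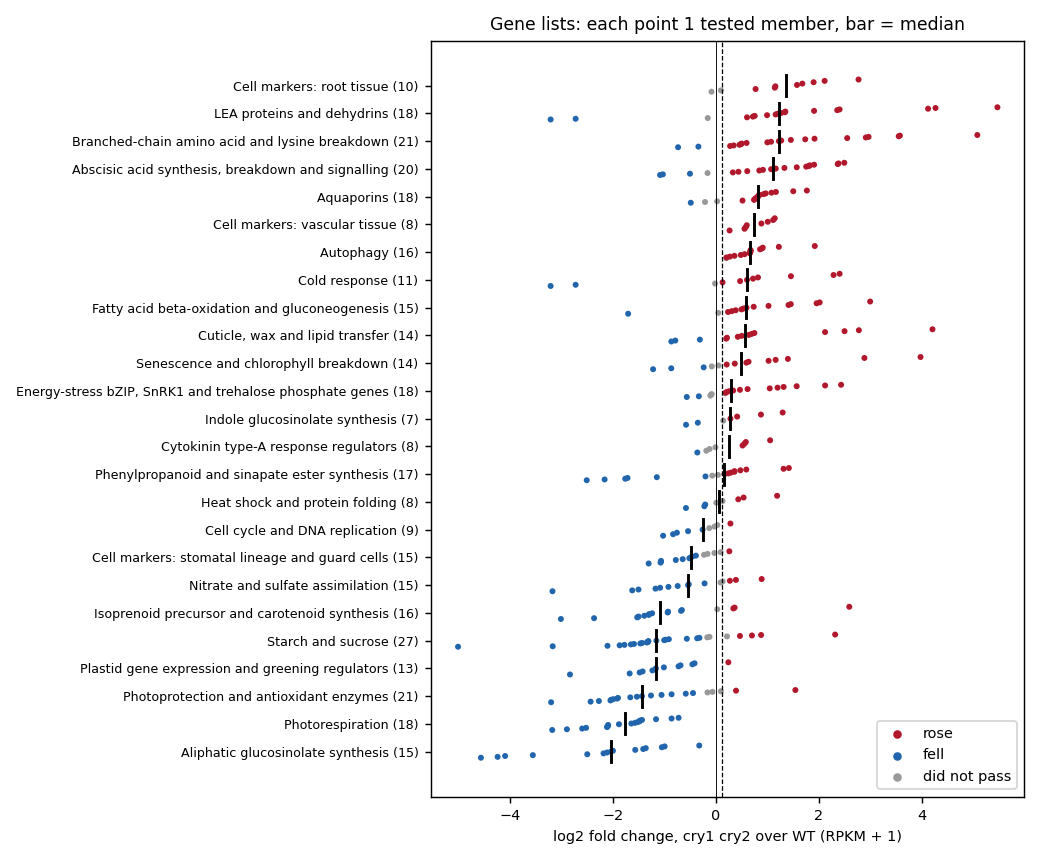
Log2 fold change of cry1 cry2 over WT (RPKM + 1) for every tested member of the 25 gene lists, with the number tested in parentheses and the median as a black bar. Red points rose, blue points fell and grey points did not pass, and the dashed line marks the median of 0.12 over all tested models. Lists of root marker, breakdown, abscisic acid and LEA genes lie to the right, and photorespiration and aliphatic glucosinolate genes to the left.

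Plants that run short of sugar break down protein, lipid and branched-chain amino acids. Of 21 genes listed for branched-chain amino acid and lysine breakdown, 19 rose and 2 fell, with a median of 1.23 and 13 rises of at least 2-fold. The list also holds MGL and ERD5, which act on methionine and proline. MGL (AT1G64660) measured 239.5 and 237 RPKM in the mutant libraries against 17.8 and 21.1 RPKM in WT. MGL splits methionine and so feeds isoleucine synthesis (3.55, SE 0.07). AT1G21400, annotated as a thiamin diphosphate enzyme and listed as a subunit of the branched-chain ketoacid dehydrogenase, rose by 3.57, SE 0.10. The 2 falls were BCAT1 (-0.73, SE 0.11) and the proline dehydrogenase ERD5 (-0.34, SE 0.08). The fall of ERD5 shrank to -0.20 without WT_blue replicate 1.

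SnRK1 is the kinase of energy shortage, and bZIP factors of the C and S1 groups act with it. Of 18 genes of this list 12 rose, 2 fell and 4 did not pass, and the median was 0.30. Under median-of-ratios scaling the median was 0.18 and 5 fell. TPS11 (AT2G18700) was at 74.2 and 74.4 RPKM in the cry1 cry2 libraries, against 13.2 and 12.7 RPKM in WT. TPS11 is a class II trehalose phosphate synthase relative (2.43, SE 0.07), and TPS8 of the same class rose by 1.57, SE 0.08. For BZIP1 (AT5G49450) the values were 37.9 and 36.7 RPKM in cry1 cry2 against 7.44 and 8.17 RPKM in WT. BZIP1 is a factor of the low-energy response (2.12, SE 0.07). The falls were BZIP11 (-0.56, SE 0.10) and BZIP63 (-0.33, SE 0.08), the second of which did not pass without WT_blue replicate 1 (adjusted p = 0.0639).

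Autophagy carries cell contents to the vacuole for breakdown. Of its 16 genes 15 rose, none fell and 1 did not pass, with a median of 0.67. The ubiquitin-like ATG8 proteins, which coat the forming autophagosome, led the list. ATG8B (AT4G04620) reached 71.5 and 76.6 RPKM in cry1 cry2 and 17.6 and 20.1 RPKM in WT. Levels of ATG8F (AT4G16520) were 249 and 258 RPKM in cry1 cry2, against 113 and 103 RPKM in WT. Their log2 fold changes were 1.92, SE 0.07 and 1.22, SE 0.07, and ATG8E rose by 0.91, SE 0.05.

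Senescence and chlorophyll breakdown had 14 tested genes (16 listed), 9 risen, 3 fallen and 2 not passing, with a median of 0.48 (0.29 without a filter and 0.25 with a pseudocount of 5 RPKM). The rises were led by the NAC factors that promote leaf senescence. NAP (AT1G69490) gave 34.0 and 34.9 RPKM in the mutant and 1.58 and 0.963 RPKM in WT. ORE1 (AT5G39610) stood at 20.7 and 26.3 RPKM in cry1 cry2, against 2.68 and 1.95 RPKM in WT. NAP rose by 3.98, SE 0.11 and ORE1 by 2.89, SE 0.13. NYE2, a STAY-GREEN-like gene of chlorophyll breakdown, had 3.46 and 4.06 RPKM in cry1 cry2 against 0.724 and 0.881 RPKM in WT and rose (1.40, SE 0.12). The 3 falls were also genes of chlorophyll breakdown. ACD2, which reduces the red chlorophyll catabolite, fell (-1.22, SE 0.07), as did the chlorophyll b reductase NYC1 (-0.86, SE 0.06) and its relative NOL (-0.23, SE 0.08). The fall of NOL did not pass without WT_blue replicate 1 (adjusted p = 0.0590), WT_blue replicate 2 (0.0661) or cry1cry2_blue replicate 1 (0.125).

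Fatty acid beta-oxidation and gluconeogenesis turn seed oil into sugar. Rises numbered 13 of 15 genes, with 1 fall, 1 not passing and a median of 0.60. PPDK (AT4G15530) came to 79.8 and 81.8 RPKM in cry1 cry2 libraries against 9.37 and 9.12 RPKM in WT libraries. PPDK, pyruvate orthophosphate dikinase, rose by 3.00, SE 0.06, and PCK1, the carboxykinase of gluconeogenesis, by 1.96, SE 0.06. ICL (AT3G21720) had 82.9 and 79.7 RPKM in cry1 cry2 against 45.3 and 7.94 RPKM in WT. ICL, isocitrate lyase of the glyoxylate cycle, differed more than 5-fold between the WT libraries, and its log2 fold change of 2.02, SE 0.50 was 3.20 without WT_blue replicate 1 and 0.83 without replicate 2. The peroxisomal thiolase PKT1 was the fall (-1.70, SE 0.09).

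Photorespiration salvages the carbon of phosphoglycolate, which Rubisco makes when it binds oxygen. All 18 listed genes were tested and fell, 16 of them at least 2-fold, with a median of -1.76. In cry1 cry2 SHM1 (AT4G37930) stood at 95.6 and 109 RPKM, against 917 and 941 RPKM in WT. SHM1 is the mitochondrial serine hydroxymethyltransferase (-3.18, SE 0.06). GLDP1 (AT4G33010) measured 97.5 and 107 RPKM in the mutant libraries against 609 and 636 RPKM in WT. GLDP1 is a P-protein of the glycine decarboxylase (-2.59, SE 0.06). PGLP1, which takes the phosphate off phosphoglycolate, fell by 2.89 on the log2 scale.

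Of 27 tested starch and sucrose genes (28 listed) 20 fell, 4 rose and 3 did not pass, with a median of -1.15. SPS4F (AT4G10120) was at 6.64 and 6.51 RPKM in the cry1 cry2 libraries, against 68.4 and 65.6 RPKM in WT. SPS4F is a sucrose phosphate synthase (-3.17, SE 0.09), and ADG1, the small subunit of the enzyme that commits carbon to starch, fell too (-2.103, SE 0.07). The rises included SUS3, a sucrose synthase (2.32, SE 0.10), the large subunit gene APL3 (0.88, SE 0.10) and the beta-amylase BAM1 (0.70, SE 0.06). The list thus held beta-amylases in both directions, CT-BMY down and BAM1 up.

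Of 15 tested nitrate and sulfate assimilation genes (18 listed) 10 fell, 3 rose and 2 did not pass, with a median of -0.54. The asparagine synthetases moved in opposite directions. For ASN2 (AT5G65010) the values were 24.1 and 23.5 RPKM in cry1 cry2 against 206 and 239.6 RPKM in WT. ASN2 fell by 3.17 on the log2 scale, whereas ASN1 rose, as given above. NIR1, the nitrite reductase of the plastid, fell (-1.500, SE 0.06), and so did APR2 of sulfate reduction (-1.62, SE 0.06). The cytosolic glutamine synthetases GLN1;3 (0.89, SE 0.06) and GSR1 (0.27, SE 0.06) rose, as did the root sulfate transporter SULTR1;2 (0.39, SE 0.07). Under median-of-ratios scaling the value of GSR1 shrank to 0.15 (adjusted p = 0.0325).

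Isoprenoid precursors and carotenoids were covered by 16 genes, of which 12 fell and 3 rose, with a median of -1.09. LUT5, a carotene hydroxylase, fell (-3.01, SE 0.08), and so did NPQ1, the violaxanthin de-epoxidase that dissipates excess light (-2.36, SE 0.07). BETA-OHASE 2 (AT5G52570) reached 11.7 and 12.6 RPKM in cry1 cry2 and 1.41 and 0.967 RPKM in WT. This second beta-carotene hydroxylase rose by 2.59, SE 0.10. DXS and HDR, at the start and end of the precursor pathway, rose by 0.37, SE 0.06 and 0.34, SE 0.05, and HDS between them fell by 1.52 on the log2 scale. Median-of-ratios scaling took DXS to 0.24 and HDR to 0.22, both still past the threshold.

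Of 21 tested photoprotection and antioxidant genes (22 listed) 16 fell, 2 rose and 3 did not pass, with a median of -1.43. The named falls were enzymes of the plastid. Levels of PRXQ (AT3G26060) were 34.3 and 40.5 RPKM in cry1 cry2, against 348 and 352 RPKM in WT. PRXQ is a peroxiredoxin of the thylakoid (-3.20, SE 0.07). The stromal peroxiredoxin 2CPB (-2.43, SE 0.07) and the thylakoid ascorbate peroxidase TAPX (-2.27, SE 0.08) fell as well. The rises were CAT3, a peroxisomal catalase, and CSD1, the cytosolic copper/zinc superoxide dismutase (0.39, SE 0.06). CAT3 (AT1G20620) gave 3232 and 3003 RPKM in the mutant and 1060.3 and 1073 RPKM in WT. The log2 fold change of CAT3 was 1.55, SE 0.07.

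Greening needs transcription factors of the GLK and GATA families and sigma factors that direct the plastid RNA polymerase. Of 13 listed regulators 12 fell and 1 rose, with a median of -1.16. CGA1 (AT4G26150) stood at 2.29 and 2.97 RPKM in cry1 cry2, against 24.6 and 24.8 RPKM in WT. CGA1 is a GATA factor that promotes chloroplast development (-2.83, SE 0.11). SIG2 (AT1G08540) came to 20.7 and 21.3 RPKM in cry1 cry2 libraries against 71.2 and 67.2 RPKM in WT libraries. SIG2 and SIG6 are sigma factors and fell (-1.67, SE 0.06 and -1.48, SE 0.09). GLK2 was the rise (0.24, SE 0.06), and it did not pass under median-of-ratios scaling (0.12, adjusted p = 0.107).

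Transcripts for ribosomal proteins of both the plastid and the cytosol were lower in the mutant, by different amounts. Of 24 tested nuclear genes for plastid ribosomal proteins (26 found) 23 fell and 1 did not pass, with a median of -1.58 and 19 falls of at least 2-fold. PRPL11 (AT1G32990) had 48.2 and 55.5 RPKM in cry1 cry2 against 209 and 206 RPKM in WT. In cry1 cry2 PSRP6 (AT5G17870) stood at 87.6 and 93.7 RPKM, against 333 and 341 RPKM in WT. PRPL11 and PSRP6 belong to the large plastid subunit, and fell by 1.99 and 1.88 on the log2 scale. Of 167 tested genes for cytosolic ribosomal proteins (177 found) 147 fell, 1 rose and 19 did not pass. Their median was -0.35, with no fall of 2-fold on the deposited scale. RPSAb of this set stood at -1.01 under upper-quartile and -1.03 under median-of-ratios scaling. AT4G10450 measured 27.9 and 29.1 RPKM in the mutant libraries against 55.7 and 57.2 RPKM in WT. This ribosomal protein L6 relative had the largest fall of the cytosolic set (-0.96, SE 0.06). AT5G39850, a ribosomal protein S4, was the rise (0.47, SE 0.10, and 0.31 without cry1cry2_blue replicate 1). The sorting into plastid and cytosolic was done by words of the RefSeq records and was changed once after values were seen. By the first wording 37 of 44 plastid genes fell and 5 rose, and 149 of 169 cytosolic genes fell and 1 rose.

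The promoters of the 3 named falls of each set are shown because the sets differed in 2 short elements. Capitals mark GATAAG, a core bound by GATA factors, in the plastid genes, and AACCCTA, the telo box known from genes of translation, in the cytosolic genes, on either strand.
PRPL11: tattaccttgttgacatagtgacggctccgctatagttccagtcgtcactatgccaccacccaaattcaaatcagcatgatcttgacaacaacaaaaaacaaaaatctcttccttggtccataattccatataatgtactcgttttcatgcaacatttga
PSRP6: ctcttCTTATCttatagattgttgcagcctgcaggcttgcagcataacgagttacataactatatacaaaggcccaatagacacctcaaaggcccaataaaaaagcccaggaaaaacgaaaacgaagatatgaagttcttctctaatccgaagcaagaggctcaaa
AT4G17560: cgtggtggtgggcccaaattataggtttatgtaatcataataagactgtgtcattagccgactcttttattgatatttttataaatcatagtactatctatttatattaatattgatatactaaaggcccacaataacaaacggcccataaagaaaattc
AT4G10450: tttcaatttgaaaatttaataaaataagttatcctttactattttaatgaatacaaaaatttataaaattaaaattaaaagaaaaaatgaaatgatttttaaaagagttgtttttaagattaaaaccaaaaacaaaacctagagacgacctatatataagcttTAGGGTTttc
RPSAb: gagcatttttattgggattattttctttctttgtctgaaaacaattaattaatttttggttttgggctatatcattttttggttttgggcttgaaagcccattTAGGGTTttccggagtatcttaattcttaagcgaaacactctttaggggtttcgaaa
AT2G20450: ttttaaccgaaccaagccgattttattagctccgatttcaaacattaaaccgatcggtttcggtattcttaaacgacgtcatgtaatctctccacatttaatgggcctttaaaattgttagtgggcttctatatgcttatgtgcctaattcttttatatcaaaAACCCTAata
In TAIR10.1 they lie on chr1:11955506-11955665 (PRPL11, plus), chr5:5907619-5907784 (PSRP6, plus), chr4:9780074-9780233 (AT4G17560, plus), chr4:6464536-6464708 (AT4G10450, minus), chr3:1310878-1311037 (RPSAb, minus) and chr2:8813682-8813854 (AT2G20450, plus). PRPL11 and AT4G17560 have no GATAAG in the printed stretch, PSRP6 has 1 at -151, and the 3 cytosolic genes have 1 AACCCTA each, at 13, -47 and 13. Over the full window GATAAG stood in 16 of 24 plastid ribosomal promoters (66.7%), in 31 of 167 cytosolic ones (18.6%) and in 15.2% of all promoters. AACCCTA stood in 100 of 167 cytosolic ribosomal promoters (59.9%), in 5 of 24 plastid ones (20.8%) and in 8.26% of all. GATAAG was also more frequent among models that changed at least 2-fold in either direction, with 24.6% of those that fell and 19.3% of those that rose. In all 9 motifs were searched in 16 classes of promoters, and the promoters shown and the shares given were picked from the 144 shares after these had been seen. The promoters of BCAT2, SIG2, SHM1, MAM1 and CYP79F1, looked at first, held none of the motifs searched for in them. GATAAG stood in 7 of 21 promoters of branched-chain amino acid and lysine breakdown (33.3%). CACATG stood in 18.7% of models risen at least 2-fold and 13.1% of those fallen at least 2-fold, against 12.7% of all. For AAAATATCT these shares were 3.04%, 4.66% and 2.96%. AAAATATCT also stood in 9.62% of models fallen and 5.33% of those risen at least 8-fold, and in 3 of 18 LEA promoters. ACTCAT stood in 16.4% of models risen at least 2-fold and 16.6% of those fallen at least 2-fold, against 14.1% of all, and in 26.7% of aliphatic glucosinolate promoters. ACGTCA stood in 12.2% of models risen at least 2-fold and 10.1% of those fallen at least 2-fold, against 9.63% of all, and in 5 of 18 LEA promoters (27.8%).

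Aliphatic glucosinolates are sulfur-containing defence compounds made from methionine, and indole glucosinolates come from tryptophan. All 15 listed aliphatic genes were tested and fell, 13 of them at least 2-fold, with a median of -2.04. MAM1 (AT5G23010) was at 1.65 and 2.40 RPKM in the cry1 cry2 libraries, against 54.1 and 57.1 RPKM in WT. MAM1 lengthens the methionine side chain (-4.24, SE 0.13). For CYP83A1 (AT4G13770) the values were 1.32 and 1.30 RPKM in cry1 cry2 against 51.2 and 56.0 RPKM in WT. CYP83A1 acts in building the core structure (-4.56, SE 0.10). CYP79F1, a step before it, had 1 read over both mutant libraries against 1404 in WT, a ratio of WT over cry1 cry2 of 1437.5 (exact 95% interval 257.6 to 56818, counting error only). MYB28 (AT5G61420) reached 7.65 and 7.17 RPKM in cry1 cry2 and 35.1 and 35.5 RPKM in WT. MYB28, the main transcription factor of the aliphatic branch, fell by 2.11 on the log2 scale.

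Of 7 tested genes of the indole branch (8 listed) 4 rose and 2 fell, near the shares of 42.3% and 26.9% over all models, and the list had a median of 0.28, or 0.16 under median-of-ratios scaling. Levels of MYB51 (AT1G18570) were 15.7 and 14.6 RPKM in cry1 cry2, against 5.53 and 5.59 RPKM in WT. MYB51, a regulator of the indole branch, rose (1.30, SE 0.10), as did CYP79B3 (0.88, SE 0.05), which starts it from tryptophan. Its partner enzyme CYP79B2 fell (-0.35, SE 0.06), and so did UGT74B1, which serves both branches (-0.58, SE 0.06).

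Phenylpropanoid genes went in both directions. Of 17 tested genes (18 listed) 9 rose (52.9%) and 6 fell (35.3%), against 42.3% and 26.9% of all tested models. Another 2 did not pass, and the list had a median of 0.17 and a mean of the opposite sign, -0.25. The median was 0.11 without WT_blue replicate 1 and 0.046 under median-of-ratios scaling. PAL4 (AT3G10340) gave 63.1 and 61.0 RPKM in the mutant and 24.7 and 24.0 RPKM in WT. PAL2 (AT3G53260) stood at 17.8 and 19.7 RPKM in cry1 cry2, against 64.3 and 67.2 RPKM in WT. These 2 phenylalanine ammonia-lyases, which open the pathway, went in opposite directions (1.32, SE 0.06 and -1.76, SE 0.06). Among the coumarate ligases, 4CL2 rose (0.59, SE 0.08) and 4CL3, tied to flavonoids, fell (-2.51, SE 0.12). The lignin enzyme CAD5 rose (1.42, SE 0.05), and FAH1 of sinapate esters, which screen ultraviolet light, fell (-2.16, SE 0.08).

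Aquaporins are water channels of the plasma membrane and the vacuole. Of 18 genes 15 rose and 1 fell, 2 did not pass, and the list had a median of 0.82. PIP2;4 (AT5G60660) came to 170.4 and 140.4 RPKM in cry1 cry2 libraries against 46.7 and 42.8 RPKM in WT libraries. PIP2;4 of the plasma membrane had the largest rise of the family (1.77, SE 0.08), and PIP1;3 rose by 1.17, SE 0.08. PIP1;4 was the fall (-0.49, SE 0.05), and 2 members fell under both other scalings and without WT_blue replicate 1.

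Of 14 tested genes of cuticle, wax and lipid transfer (15 listed) 11 rose and 3 fell, with a median of 0.57. CER1 (AT1G02205) had 58.4 and 67.0 RPKM in cry1 cry2 against 10.2 and 10.3 RPKM in WT. CER1 makes the alkanes of the wax layer (2.50, SE 0.07). In cry1 cry2 LTP4 (AT5G59310) stood at 34.3 and 65.4 RPKM, against 1.24 and 2.06 RPKM in WT. LTP4, a lipid transfer protein, differed nearly 2-fold between the mutant libraries, both far above WT (4.21, SE 0.25). LACS2 of cutin (-0.86, SE 0.10), LTP1 (-0.79, SE 0.09) and KCS5 (-0.31, SE 0.06) fell.

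Of 11 tested cold response genes (12 listed) 8 rose and 2 fell, 1 did not pass, and the list had a median of 0.61. KIN1 (AT5G15960) measured 119 and 198 RPKM in the mutant libraries against 31.2 and 25.5 RPKM in WT. KIN1 (2.40, SE 0.18) and the factor CBF2 (1.46, SE 0.10) rose, and GOLS3, a galactinol synthase, rose by 2.29, SE 0.15. The falls were COR15A and COR15B.

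The lists for cell division, cytokinin and protein folding were short. Of 9 cell cycle and DNA replication genes 5 fell (55.6%, against 26.9% of all tested models) and 1 rose (11.1%, against 42.3%). Another 3 did not pass, and the list had a median of -0.26. PCNA1, the sliding clamp of replication, fell the most (-1.02, SE 0.07). The helicase subunit MCM2 fell by 0.83 on the log2 scale. The rise, CYCD3;1 (0.28, SE 0.08), did not pass without WT_blue replicate 1 (adjusted p = 0.0546) or under median-of-ratios scaling (0.0840). Of 8 tested type-A response regulators (9 listed), which dampen the cytokinin signal, 4 rose (50%) and 1 fell (12.5%). Over all tested models 42.3% rose and 26.9% fell, and the list had a median of 0.26. Without a filter that median was -0.0059, and under both other scalings 2 fell. ARR5 rose by 1.06, SE 0.08 and ARR7 fell by 0.36 on the log2 scale. Of 8 tested heat shock and folding genes (11 listed) 3 rose and 3 fell (37.5% each, against the same 42.3% and 26.9%), and 2 did not pass. The list had a median of 0.07, which turned to -0.011 and -0.036 under the other scalings and to -0.20 with a filter at 5 RPKM. The rise of HSP18.2 (0.44, SE 0.17) did not pass under either other scaling, with a pseudocount of 0.1 RPKM, without a filter, without any 1 of the 4 libraries or with limma voom on recovered reads (adjusted p = 0.0594 to 0.184). The fall of BIP1 (-0.20, SE 0.06) did not pass without WT_blue replicate 1 (0.0541) or cry1cry2_blue replicate 1 (0.0506). HSC70-1, the most abundant of those named, fell by 0.58 on the log2 scale. The other rises, HSP22.0 and HSP17.4, passed under upper-quartile (1.15 and 0.49) and median-of-ratios scaling (1.11 and 0.46). HSP22.0 had 61 reads over both cry1 cry2 libraries against 3 in WT, so it could enter the test only on its high side.

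Transcription factor families leaned toward rises in numbers above the 42.3% of all tested models. Rises and falls numbered 44 and 9 of 68 tested NAC models, 31 and 3 of 50 bZIP models, 28 and 4 of 51 WRKY models, 37 and 12 of 66 homeobox models, 32 and 11 of 59 ERF models, 56 and 20 of 104 MYB and MYB-like models, and 49 and 19 of 93 bHLH models. The medians lay between 0.26 for ERF and 0.41 for NAC models, against 0.12 over all. No test of that difference was made. The falls numbered 5 of the NAC models without WT_blue replicate 1 or cry1cry2_blue replicate 1, and 7 of the ERF models without WT_blue replicate 2.

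NAC3 (AT3G15500) was at 18.5 and 19.0 RPKM in the cry1 cry2 libraries, against 0.649 and 0.529 RPKM in WT. NAC3, a stress-induced NAC factor, rose by 3.64, SE 0.08. For HEC1 (AT5G67060) the values were 26.4 and 26.5 RPKM in cry1 cry2 against 1.32 and 1.16 RPKM in WT. HEC1 is a bHLH factor known from the gynoecium (3.62, SE 0.07), and PRE1, a short bHLH protein that promotes elongation, rose by 3.02, SE 0.09. HB52 (AT5G53980) reached 94.5 and 76.9 RPKM in cry1 cry2 and 9.63 and 11.1 RPKM in WT. HB52, an HD-ZIP factor, rose (2.93, SE 0.09), and so did HB-12 (2.06, SE 0.08) and HB-7 (1.46, SE 0.08), which respond to abscisic acid and drought.

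Levels of EBP (AT3G16770) were 576 and 505 RPKM in cry1 cry2, against 102 and 91.2 RPKM in WT. EBP is an ERF factor (2.47, SE 0.08), and the unnamed ERF-type AT1G75490 rose by 3.06, SE 0.12. MYB96, which links abscisic acid to wax synthesis, rose (1.76, SE 0.07), as did MYB55 (1.85, SE 0.09) and MYB3 (1.69, SE 0.06). WRKY60 led its family (1.65, SE 0.11). Among the falls, ATH1 (-1.77, SE 0.09) and KNAT4 (-1.44, SE 0.09) are homeobox factors, UNE10 is a bHLH factor of the PIF group (-1.19, SE 0.09), and HY5, the bZIP factor that COP1 removes in the dark, had a small fall (-0.44, SE 0.06).

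**Figure D5:**
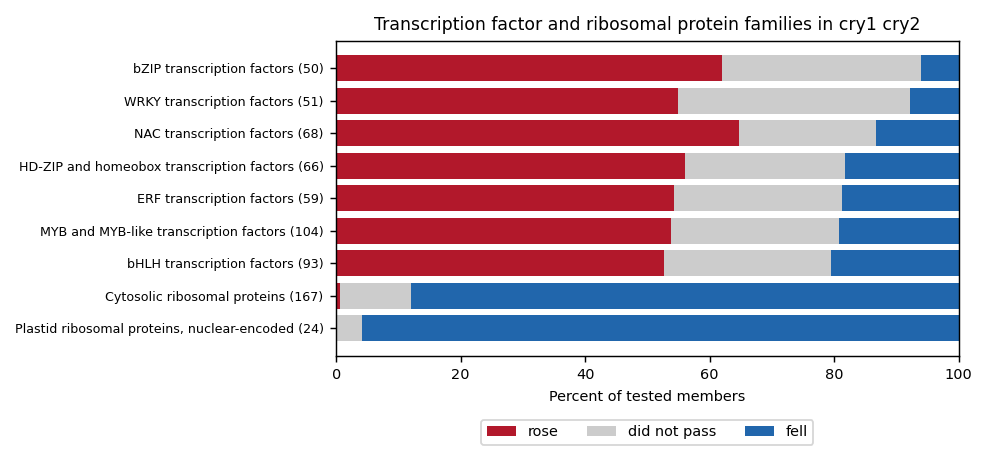
Percent of tested members that rose (red), did not pass (grey) or fell (blue) in cry1 cry2 against WT, for 7 transcription factor and 2 ribosomal protein families, with the number tested in parentheses. Rises outnumber falls in each transcription factor family, and falls make up 88.0% of the cytosolic and 95.8% of the plastid ribosomal models.

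Markers of cell types moved between the groups as well. Of 10 tested root markers (13 listed) 8 rose, none fell and 2 did not pass, with a median of 1.37. The 13 summed to 6045 to 6543 RPKM in cry1 cry2 against 2622 to 2907 RPKM in WT. Most of that sum was PYK10, which is also known from hypocotyls, as given above. CASP5 (AT5G15290) gave 95.02 and 83.1 RPKM in the mutant and 12.3 and 12.0 RPKM in WT. CASP5 builds the barrier in the cell wall of the root endodermis (2.77, SE 0.07), and CASP4 (2.11, SE 0.10) rose with it. All 8 vascular markers rose, with a median of 0.74 and a sum of 413 to 427 RPKM in cry1 cry2 against 246 to 253 RPKM in WT. Among them were XCP1, a protease of xylem (1.11, SE 0.07), and the cellulose synthases of secondary walls IRX1 (1.15, SE 0.09) and IRX3 (1.01, SE 0.08). Of 15 tested stomatal and guard cell markers (16 listed) 10 fell, 1 rose and 4 did not pass, and the sum was 448 to 508 RPKM in cry1 cry2 against 1113 to 1130.0 RPKM in WT, most of it the myrosinase TGG1. TGG1 (AT5G26000) stood at 387 and 436 RPKM in cry1 cry2, against 1006 and 1026 RPKM in WT. FAMA, the bHLH factor that completes guard cells, fell (-1.06, SE 0.12), and MYB60 of guard cells fell (-1.07, SE 0.09). The rise, GORK (0.26, SE 0.10), did not pass under upper-quartile (adjusted p = 0.122) or median-of-ratios scaling (0.170), without the filter on low values (0.0582), or without any 1 of the 4 libraries (0.0619 to 0.167). No marker of the 3 lists was under 0.1 RPKM in both libraries of a group. The part of these cell types in the other results was not tested.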

How the data were processed

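RNA was purified with oligo(dT) from whole seedlings, per the labels' protocols. The deposited RPKM values, per the file headers, are per gene model and library, and the submitters' processing notes name Bowtie2 2.2.2 and TAIR10. How reads mapping to several genes were treated is not given in the sources used here. Whole reads were recovered within 0.02 reads for 24717 of 24717 models above 0. The log2(RPKM + 1) of the deposited values was fitted with limma 3.58.1 (R 4.3.3, moderated variance with a trend) over 8 libraries in 4 groups, and p-values were adjusted over 19507 models with a threshold of 0.05. Intervals and floors (3 reads) cover counting error only.

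Names and promoter sequences come from RefSeq TAIR10.1, which lists 26719 of the models, and 697 are not in it. Promoters ran from 250 bases before to 50 after the annotated start. The members, the 25 gene lists (388 genes), the 9 families sorted by record words and the motif classes were chosen with earlier results of these data known, and the promoters shown were chosen after the matches were seen. Named genes were the mutated genes and neighbours in locus order, the 12 largest rises and falls with a mean of at least 5 RPKM and no overlap of groups, the 8 largest RPKM gains and losses, and up to 3 members per list or family and direction. Alternatives were other pseudocounts, filters and scalings, the blue-light libraries alone, a replicate block, each library left out, and limma voom on recovered reads. With 2 libraries a group no test for an outlying library was possible.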

Additional observations from a re-analysis of the deposited data

How the results depend on the processing

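All alternatives left the counts of models risen and fallen within 1.5 times of 8246 and 5242, and 83.5% (filter at 5 RPKM) to 99.8% (pseudocount of 5 RPKM) of the calls were kept in the same direction. Leaving out 1 library at a time gave 7232 to 7487 rises and 4596 to 4818 falls. Of 197 named genes none that passed reversed, and at most 8 lost their call in a setting. APRL6, which did not pass, turned to -0.066 under upper-quartile and -0.093 under median-of-ratios scaling. The replicate numbers are not stated to pair the libraries. Same-numbered libraries deviated together with a correlation of 0.03 over 2 pairs, which are identical by construction. That value cannot show whether same-numbered libraries were grown or prepared together. With the replicate block 8179 models rose and 5197 fell. The planned edgeR and DESeq2 fits were not run. A list median was counted as moved when it changed by more than the root of the summed squared SDs of the library medians of both groups, a definition that replaced a narrower one after a first run and counts fewer medians as moved. The cause of the changes below was not tested. With a pseudocount of 0.1 RPKM the medians that moved were senescence 0.53, aliphatic glucosinolate -2.37, stomatal -0.75, vascular 0.86, WRKY 0.38, bZIP 0.34. With a pseudocount of 5 RPKM the medians that moved were energy stress 0.25, autophagy 0.60, senescence 0.25, abscisic acid 0.97, starch -1.07, carotenoid -0.95, greening -0.84, aliphatic glucosinolate -1.24, heat shock 0.045, wax 0.41, cold 0.28, stomatal -0.23, vascular 0.64, WRKY 0.17, NAC 0.26, MYB 0.16, bHLH 0.19, homeobox 0.26, bZIP 0.21. Rises of at least 2-fold then numbered 770. Without a filter the medians that moved were senescence 0.29, abscisic acid 0.92, starch -1.08, phenylpropanoid 0.10, indole glucosinolate 0.22, heat shock 0.13, type-A regulator -0.0059, root 1.15, WRKY 0.21, NAC 0.26, MYB 0.17, bHLH 0.13, homeobox 0.29, bZIP 0.22. Cytosolic ribosomal models risen then numbered 2. With a filter at 5 RPKM the medians that moved were energy stress 0.34, senescence 0.37, abscisic acid 1.33, starch -1.23, aliphatic glucosinolate -2.11, heat shock -0.20, type-A regulator 0.54, stomatal -0.78, vascular 0.89, WRKY 0.38, MYB 0.45, bHLH 0.35, ERF 0.65, bZIP 0.39. Members risen then numbered 0 of the heat shock and 5 of the cold list, and members fallen 6 of the stomatal list and 0 WRKY, 4 NAC, 8 MYB, 10 bHLH and 5 ERF models. Under upper-quartile scaling the medians that moved were energy stress 0.21, autophagy 0.58, senescence 0.41, starch -1.24, nitrogen and sulfur -0.63, carotenoid -1.18, phenylpropanoid 0.075, indole glucosinolate 0.19, heat shock -0.011, type-A regulator 0.18, beta-oxidation 0.50, vascular 0.65, WRKY 0.21, NAC 0.33, MYB 0.21, bHLH 0.19, homeobox 0.28, bZIP 0.23. Members fallen then numbered 4 in the energy stress, 2 in the type-A regulator and 2 in the aquaporin list, and 7 bZIP models. Under median-of-ratios scaling the medians that moved were energy stress 0.18, autophagy 0.55, senescence 0.38, starch -1.27, nitrogen and sulfur -0.66, carotenoid -1.20, phenylpropanoid 0.046, indole glucosinolate 0.16, heat shock -0.036, type-A regulator 0.15, aquaporins 0.69, beta-oxidation 0.47, vascular 0.62, WRKY 0.19, NAC 0.30, MYB 0.18, bHLH 0.16, homeobox 0.25, bZIP 0.20, cytosolic ribosomal -0.47, plastid ribosomal -1.71. Members fallen then numbered 5 in the energy stress, 2 in the type-A regulator and 2 in the aquaporin list, and 7 bZIP models. With limma voom on the recovered reads, chosen after seeing the data, the medians that moved were senescence 0.53, aliphatic glucosinolate -2.41, stomatal -0.78, vascular 0.88, WRKY 0.40, MYB 0.33, homeobox 0.41, bZIP 0.33. Leaving out 1 library gave these ranges of medians: energy stress 0.28 to 0.32, senescence 0.39 to 0.55, starch -1.27 to -1.04, nitrogen and sulfur -0.65 to -0.54, phenylpropanoid 0.11 to 0.23, indole glucosinolate 0.25 to 0.32, WRKY 0.28 to 0.34, MYB 0.24 to 0.32, bZIP 0.28 to 0.34. Members fallen ranged over 1 to 2 (energy stress), 1 to 2 (aquaporins), 5 to 8 (NAC), 7 to 11 (ERF). The low counts came without WT_blue replicate 1 (energy stress and NAC), without cry1cry2_blue replicate 1 (NAC) and without WT_blue replicate 2 (ERF), and the 2 aquaporins without WT_blue replicate 1. With 2 libraries a group no exact permutation test can reach the threshold, so single values rest on the fit across models. Depth limits genes near 1 RPKM, whose folds are understated on this scale.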
